A study of Mus musculus with 5 samples.

Results

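A set of 7 genes associated with regulatory T cells was followed in tumor-specific CD4+ T cells: the lineage factor Foxp3 and, beside it, Izumo1r, Gpr83, Nrp1, Lrrc32, Ebi3 and Il10. Members were taken by gene symbol or synonym, and all probe sets that the array annotation gives to them were used. This gave 10 probe sets, of 45101 on the array, for 6 of the 7 genes. No probe set carries the symbol Lrrc32 in the annotation used, and that gene was not analysed here. The choice of genes used no measured value of the comparison, although earlier results of these data were known when it was made.

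Expression was measured on 5 Affymetrix arrays of CD4+ T cells from Balb/c mice that carry a transgenic T cell receptor on a SCID background, which makes no other T cells and no B cells. The receptor recognises MOPC315, a mouse plasma cell tumor (myeloma). For the 3 activated samples, mice aged 7 to 12 weeks received 100000 MOPC315 cells in 250 µl of Matrigel, a basement membrane gel, and their tumor-draining axillary lymph nodes were taken on day 8. Nodes of 12 to 15 mice were pooled per experiment and sorted for CD4 and the antibody staining GB113 to 95% purity or more. Naive cells, in 2 samples, were from nodes pooled from naive mice of this age and kind, without tumor. A sort purity for them was not given in the sources used here. Each sample was labelled as an independent experiment. No sample with Matrigel and no tumor was analysed here, so tumor, gel and sorting cannot be told apart.

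Regulatory T cells restrain other lymphocytes. Foxp3 is the transcription factor that defines them, and their products act by cell contact, by cytokines and by consumption of growth signals. Several of their genes are not theirs alone: activated, follicular helper and anergic CD4+ T cells, the last being cells made unresponsive by antigen, can express some of them. Izumo1r encodes folate receptor 4, Gpr83 a G protein-coupled receptor and Nrp1 a coreceptor for semaphorins. Lrrc32 holds latent TGF-beta on the cell surface. Ebi3 is a shared chain of the cytokines IL-27 and IL-35, and Il10 is an inhibitory cytokine.

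All values are probe set intensities on a linear scale. Genes were tested on log2(intensity + 16) with limma, each by its brightest probe set, if above the 40th percentile of its array, an intensity of 10.6 to 13.4, on at least 2 arrays. A gene was called at a Benjamini-Hochberg adjusted p under 0.05 over 12860 genes. Of these, 6.37% were called higher in activated cells and 4.14% lower, and the median log2 fold change was -0.03. Probe sets were also fitted one by one, and 4.8% of 29201 were called higher. Among the members, 5 genes were tested, 3 were called higher (Izumo1r, Gpr83 and Ebi3) and 0 lower, none at an unadjusted p under 0.05 either. Of 9 member probe sets tested, 4 were called higher. With 3 arrays against 2, the number of arrays limits the precision of each comparison. In sorted populations, fewer cells with a transcript and less of it per cell cannot be told apart.

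Before the members, the makeup of the samples was checked with marker genes. All 6 T cell genes with a probe set lay above the filter on every array, and their summed intensity ran from 12623 to 14230 in activated and from 11116 to 11923 in naive samples. Activated replicate 1 stood apart in markers of other cell types. Its macrophage and monocyte sum (10 of 12 genes with a probe set) was 2724, against 130 and 996 in the other activated samples and 379 and 253 in the naive samples, and 4 of these genes were called higher once activated replicate 2 was left out, against 0 with all arrays. Its sum was also the highest for NK cell genes (6 of 9), at 3959 against 816 and 754 in the other activated samples and 828 and 724 in the naive samples. For neutrophil genes (8 of 9) it was 990, against 75.9 and 129 in the other activated samples and 128 and 106 in the naive samples. For dendritic cell genes (9 of 10) it was 382, against 128 and 138 in the other activated samples and 123 and 101 in the naive samples. B cell genes (9 of 10) summed to 86.6 to 117 in activated and 83.4 to 87.3 in naive samples. Plasma cell and myeloma genes (8 of 8) summed to 1159 to 1302 in activated and 1216 to 1351 in naive samples, and Derl3 among them, an endoplasmic reticulum protein, was called higher, a call lost without naive replicate 1 (0.98). Plasmacytoid dendritic cell genes (7 of 7) summed to 395 to 836 in activated and 1306 to 1588 in naive samples, with Bst2 and Ccr9 called lower. Ccr9 lost its call without naive replicate 2 (-2.51), with robust variances, and with probe sets without a shared-sequence suffix (-0.77). The CD8 genes Cd8a and Cd8b1 summed to 271 to 406 in activated and 852 to 1040 in naive samples, with Cd8b1 called lower. Endothelial and stromal genes (12 of 12) summed to 383 to 465 in activated and 256 to 288 in naive samples, with Pecam1, which T cells also express, called higher, a call lost without naive replicate 1 or 2 (0.78 and 0.87). Platelet genes (7 of 7) summed to 135 to 292 in activated and 178 to 187 in naive samples. Called among the NK genes were Klrc1 and Eomes, both higher. The arrays also differed in the hybridisation control bioC, which averaged 714 and 634 on activated replicates 1 and 2, 169 on activated replicate 3, 716 on naive replicate 1 and 207 on naive replicate 2.

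Foxp3, which lies on chromosome X, read around the filter intensity in both groups. Its probe set 1420765_a_at read 19.1, 11.6 and 6.7 in activated samples, against 7.2 and 17 in naive samples. The groups overlapped throughout, and 1 activated and 1 naive array lay above the filter. The means were 12.5 ± 6.25 in activated (SD, n = 3) and 12.1 ± 6.93 in naive cells (SD, n = 2), and the log2 fold change was 0.02 ± 0.30 (SE), with an adjusted p of 0.98. The 95% interval ran from -0.66 to 0.69, and a difference within it was not detectable at these intensities. The sign turned under quantile normalization and without naive replicate 1, at -0.0026 and -0.24.

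**Figure D1:**
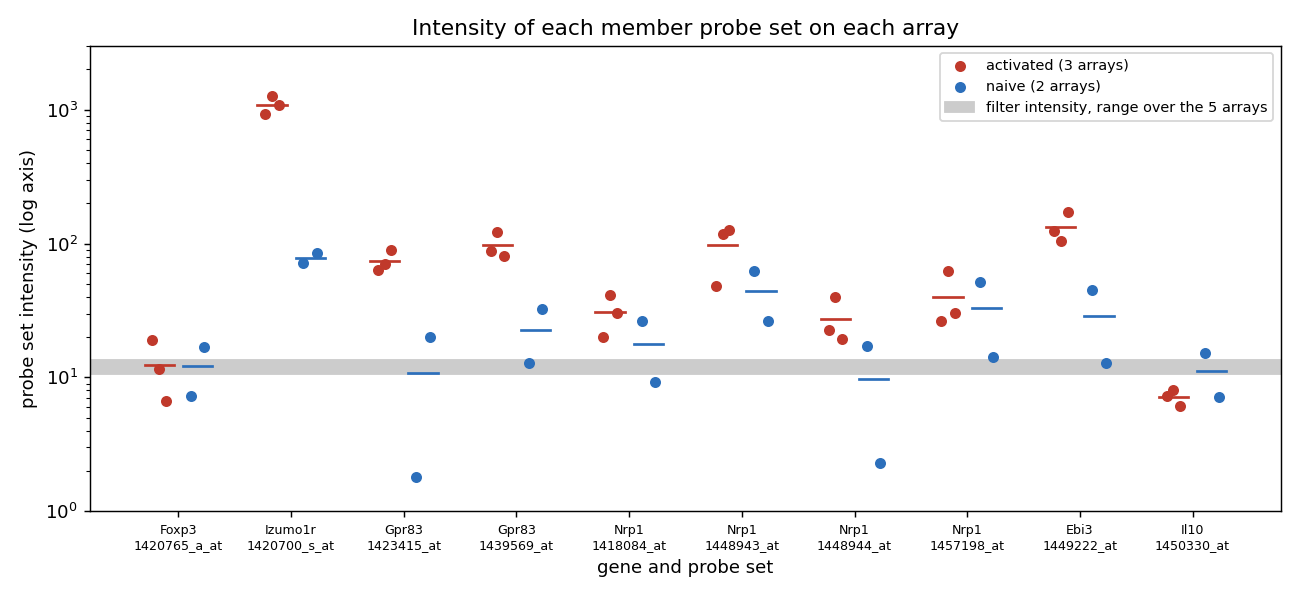
Intensity of the 10 member probe sets on each array, on a log axis. Points are arrays, activated left of naive, short lines are group means, and the grey band is the filter intensity over the 5 arrays. All 3 activated points of Izumo1r, both Gpr83 probe sets and Ebi3 lie above both naive points. The activated points of Foxp3 lie above, within and below the band, and those of Il10 lie below it.

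Izumo1r was the member with the largest difference. Folate receptor 4 is anchored in the membrane by a lipid. It is known as Juno on the mouse egg, where it binds the sperm protein Izumo1, and it marks mouse regulatory as well as anergic and follicular helper CD4+ T cells. Its probe set 1420700_s_at read 928.6, 1258 and 1081.9 in activated samples, against 71.2 and 85.6 in naive samples. Every activated value was above both naive values by a wide gap, and all 5 arrays lay above the filter. The means were 1090 ± 165 in activated (SD, n = 3) and 78.4 ± 10.2 in naive cells (SD, n = 2), a ratio of 13.9. The log2 fold change was 3.54 ± 0.18 (SE, 95% interval 3.15 to 3.94, adjusted p = 5.3e-06). The suffix of this probe set marks oligonucleotides that can match more than 1 transcript, and Izumo1r has no other probe set on the array.

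Gpr83 lies beside Izumo1r on chromosome 9 and was also higher. The receptor is best known from the brain, where the peptide PEN, cut from the product of Pcsk1n, has been proposed as a ligand, and in mouse lymphocytes its transcript marks regulatory T cells. Probe set 1439569_at read 88.2, 121.1 and 81.4 in activated samples, against 12.8 and 32.5 in naive samples. Probe set 1423415_at read 63.8, 70.0 and 89.2 in activated samples, against 1.8 and 19.9 in naive samples. In both, the groups did not overlap, and of the naive arrays 1 lay above the filter. Means of 1439569_at were 96.9 ± 21.2 in activated (SD, n = 3) and 22.7 ± 13.9 in naive cells (SD, n = 2), and the gene's log2 fold change was 1.58 ± 0.27 (SE, 95% interval 0.99 to 2.17, adjusted p = 0.0037). Means of 1423415_at were 74.3 ± 13.2 in activated (SD, n = 3) and 10.9 ± 12.8 in naive cells (SD, n = 2), and the log2 fold change was 1.83 ± 0.31 (SE), at an adjusted p of 0.0055 over probe sets. Because naive values were this dim, the added 16 sets part of the size: the gene's log2 fold change was 2.17 with a pseudocount of 1 and 0.89 with 64, called in each.

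Ebi3, on chromosome 17, was also called higher. Its protein pairs with the product of Il27 to form IL-27 and with that of Il12a to form IL-35, a cytokine described in mouse regulatory T cells, and macrophages and dendritic cells also express it. Probe set 1449222_at read 124.7, 105 and 172.4 in activated samples, against 45.0 and 12.8 in naive samples. The lowest activated value was above the higher naive value, and the naive samples differed from each other more than the activated ones did in ratio. The means were 134 ± 34.7 in activated (SD, n = 3) and 28.9 ± 22.8 in naive cells (SD, n = 2), and the log2 fold change was 1.82 ± 0.31 (SE, 95% interval 1.12 to 2.51, adjusted p = 0.0042). It was 2.39 with a pseudocount of 1 and 1.10 with 64, called in each. Without activated replicate 1, the sample with the highest macrophage and dendritic cell sums, it was 1.85 with an adjusted p of 0.0148. The macrophage sums of activated replicates 1, 2 and 3 were 2724, 130 and 996 beside Ebi3 values of 124.7, 105 and 172.4, and their part in the Ebi3 difference was not tested.

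Nrp1, on chromosome 8, did not pass the test. Neuropilin 1 binds class 3 semaphorins and vascular endothelial growth factor, and on mouse regulatory T cells it marks those made in the thymus and binds Sema4a. Its brightest probe set, 1448943_at, read 47.8, 117.1 and 126.7 in activated samples, against 62.6 and 26.5 in naive samples. Activated replicate 1 lay between the naive samples, and activated replicates 2 and 3 lay above both. The means were 97.2 ± 43.1 in activated (SD, n = 3) and 44.6 ± 25.5 in naive cells (SD, n = 2), and the log2 fold change was 0.88 ± 0.37 (SE, 95% interval 0.07 to 1.70, unadjusted p = 0.036, adjusted p = 0.17). Without activated replicate 1 it was 1.25 with an adjusted p of 0.0315, which passes, so that 1 sample decides the call. The other probe sets were dimmer. Probe set 1448944_at read 22.6, 40.2 and 19.4 in activated samples, against 17.3 and 2.3 in naive samples, with no overlap but an adjusted p of 0.19. Probe set 1418084_at read 20.2, 41.3 and 30.2 in activated samples, against 26.3 and 9.3 in naive samples (log2 fold change 0.48, adjusted p = 0.39). Probe set 1457198_at read 26.6, 62.6 and 30.5 in activated samples, against 51.7 and 14.3 in naive samples (log2 fold change 0.25, adjusted p = 0.76). All 4 fold changes were positive and none was called.

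Il10, on chromosome 1, was below the filter on all arrays but 1 and was not tested. IL-10 damps macrophages and dendritic cells and is made by several activated helper T cell types. Probe set 1450330_at read 7.2, 8.1 and 6.1 in activated samples, against 15.1 and 7.1 in naive samples, and the array above the filter was naive replicate 1. The means were 7.13 ± 1.0 in activated (SD, n = 3) and 11.1 ± 5.66 in naive cells (SD, n = 2), a log2 difference of -0.21 without a test.

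**Figure D2:**
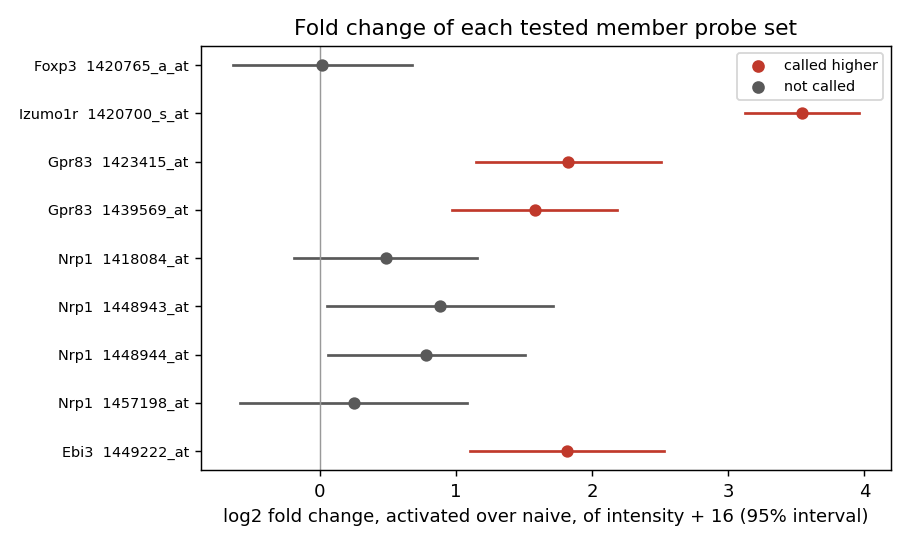
Log2 fold change, activated over naive, of intensity + 16 for the 9 tested member probe sets, with 95% intervals from limma. Red marks the 4 called higher (Izumo1r, both Gpr83 probe sets and Ebi3). The interval of Foxp3 spans 0, as do those of 2 Nrp1 probe sets.

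In all, the 3 activated samples were above both naive samples for 3 of the 5 tested member genes, beside 20.3% of all genes tested. The members differed in which naive sample was low. For Gpr83 naive replicate 1 was the lower, and for Ebi3 and Nrp1 naive replicate 2 was. The same arrays differed in bioC. Where bioC was higher (2 activated, 1 naive array), the log2 difference was 3.65 for Izumo1r, 2.05 for Gpr83, 1.10 for Ebi3 and 0.23 for Nrp1. Where it was lower (1 activated, 1 naive array), it was 3.43 for Izumo1r, 1.01 for Gpr83, 2.71 for Ebi3 and 1.75 for Nrp1. The direction was the same on both sides for each of the 4, with values that have no test. The sign of Foxp3 differed, at 0.42 where bioC was higher and -0.54 where it was lower. With the bioC split as a block, the log2 fold changes were 3.56 for Izumo1r, 1.60 for Gpr83, 1.79 for Ebi3 and 0.88 for Nrp1, and the calls were the same.

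**Figure D3:**
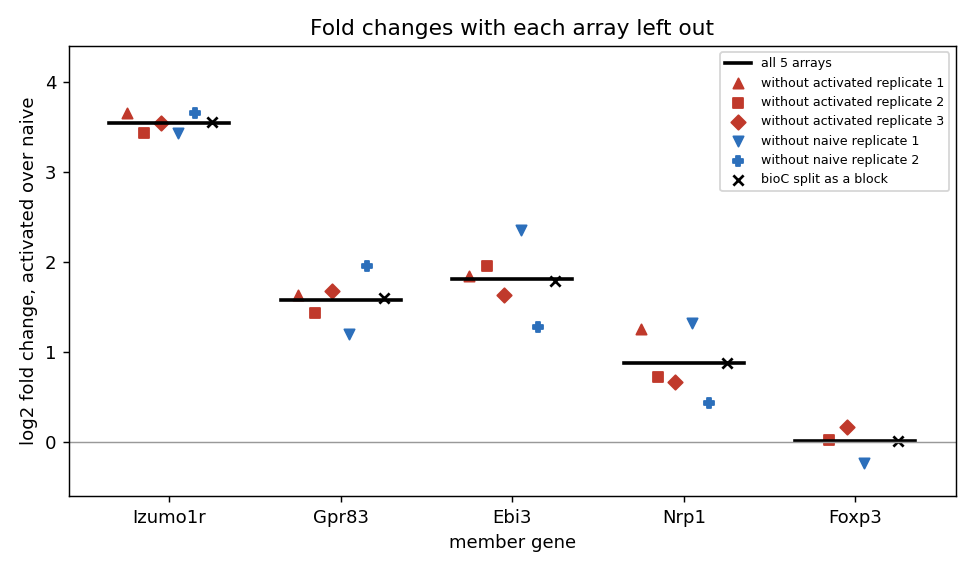
Log2 fold change, activated over naive, of the 5 tested member genes. The line is the value over all 5 arrays, red symbols leave out 1 activated array, blue symbols leave out 1 naive array, and crosses have the bioC split as a block. Izumo1r stays between 3.43 and 3.65 and Ebi3 between 1.27 and 2.36, while Foxp3 lies on both sides of 0 and was not tested without activated replicate 1 or naive replicate 2.

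Because Gpr83 and Izumo1r moved together, the genes around them on chromosome 9 were read as well, a choice made after the values were seen. In the RefSeq annotation no gene starts between them, and they lie on opposite strands. On the Gpr83 side, Mre11a, a DNA break repair nuclease, read 187.5, 198.9 and 215.8 in activated samples, against 122.1 and 107.8 in naive samples. Its log2 fold change was 0.73 ± 0.17 (SE, adjusted p = 0.021), and the call was lost without activated replicate 2 or 3 (0.73 and 0.68) without naive replicate 1 or 2 (0.81 and 0.65), and with probe sets without a shared-sequence suffix (0.74). Beyond it, Ankrd49 differed by -0.07 on the log2 scale (adjusted p = 0.89), and 1700012B09Rik and Fut4, above the filter on 0 arrays and 1 array, were not tested. On the Izumo1r side, the channel gene Panx1 had -0.20 (adjusted p = 0.58) and the Mediator subunit gene Med17 -0.15 (adjusted p = 0.63), with Hephl1 and Vstm5 between them not tested. Among the 4 tested neighbours, Mre11a was the one called.

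**Figure D4:**
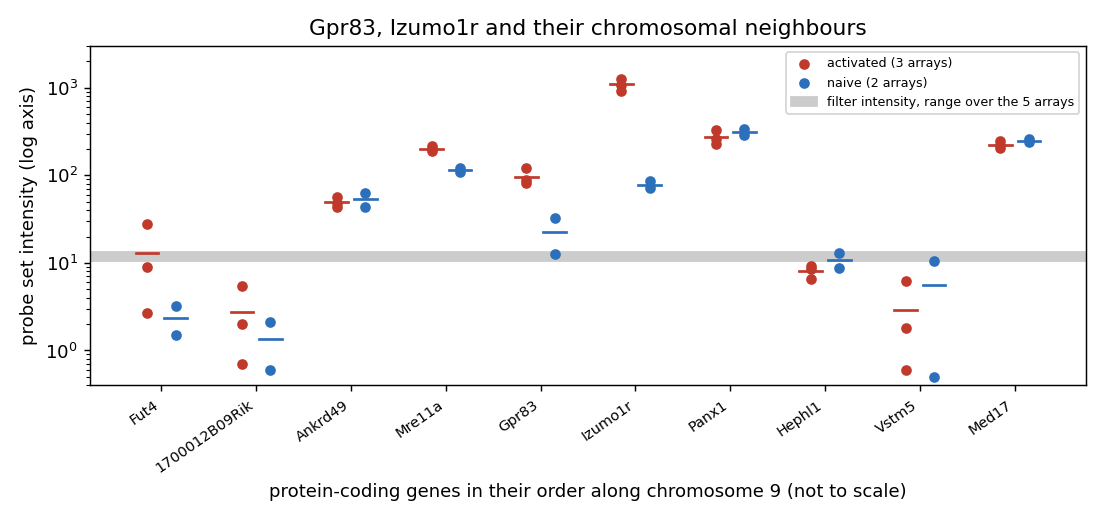
Intensity, on a log axis, of Gpr83, Izumo1r and the protein-coding genes on either side along chromosome 9, in order and not to scale. Points are arrays, activated left of naive, lines are group means, and the grey band is the filter intensity. The groups stand far apart at Gpr83 and Izumo1r, and lie close together at Ankrd49, Panx1 and Med17.

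The promoters of the 3 called genes are shown because these genes moved in the same direction, so that a reader can compare the stretches from which they start. They are from RefSeq, build GRCm38.p6, with 250 bases before and 50 after the start, in the transcribed orientation. Izumo1r is at chr9:14903718-14904017 on the minus strand, Gpr83 at chr9:14859960-14860259 on the plus strand and Ebi3 at chr17:55952373-55952672 on the plus strand. Capitals mark matches to the core letters of NFAT, a factor switched on by antigen receptor signals, GGAAA or its reverse complement.
Izumo1r: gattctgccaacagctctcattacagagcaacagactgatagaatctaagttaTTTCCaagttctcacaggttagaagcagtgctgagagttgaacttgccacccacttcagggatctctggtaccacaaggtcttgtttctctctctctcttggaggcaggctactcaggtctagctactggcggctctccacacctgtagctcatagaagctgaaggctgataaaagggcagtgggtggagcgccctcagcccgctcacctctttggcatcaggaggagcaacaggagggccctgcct
Gpr83: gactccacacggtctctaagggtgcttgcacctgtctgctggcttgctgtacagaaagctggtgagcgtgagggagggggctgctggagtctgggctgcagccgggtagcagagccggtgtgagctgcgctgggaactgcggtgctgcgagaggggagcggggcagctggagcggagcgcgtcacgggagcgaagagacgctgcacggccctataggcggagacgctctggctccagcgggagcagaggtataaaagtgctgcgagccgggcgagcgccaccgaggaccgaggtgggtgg
Ebi3: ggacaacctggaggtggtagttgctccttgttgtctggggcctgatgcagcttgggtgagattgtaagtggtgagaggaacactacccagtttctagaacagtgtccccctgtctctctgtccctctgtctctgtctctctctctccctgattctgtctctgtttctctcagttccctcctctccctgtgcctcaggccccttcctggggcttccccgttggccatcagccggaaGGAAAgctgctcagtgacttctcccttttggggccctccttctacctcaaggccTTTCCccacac
Matches on both strands were looked for to GGAAA for NFAT, TGANTCA for AP-1, AAAGGTCA for the Nr4a response element, GTAAACA for forkhead factors such as Foxp3, and TTCNNNGAA for STAT factors. Of 32851 promoters of this length, 61.3% hold the NFAT core, 7.81% the AP-1 letters, 1.51% the Nr4a element, 3.65% the forkhead letters and 8.3% the STAT letters. Izumo1r had 1 match to the NFAT core, 197 bases before the start, and Ebi3 had 2, at 15 bases before and 39 after it. Gpr83 had no match to any of the 5 motifs. The window of Nrp1 had 1 NFAT core. The windows of the 2 Foxp3 starts had 2 and 1, and the last overlapped the only STAT match among the members. Lrrc32 and Il10 had no entry in the promoter table.

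The wider genes of regulatory T cells were read from a list made with earlier results of these data known, as were the lists below. Of 40 genes, 36 were tested, 15 were called higher and 2 lower, and the median log2 fold change was 0.73. Over all genes tested, the shares were 6.37% called higher and 4.14% lower. Ctla4, an inhibitory receptor, read 427.9, 784.7 and 681.9 in activated samples, against 4.6 and 13.4 in naive samples, a ratio of means of 70.2. With the pseudocount added, its log2 fold change was 4.67 (adjusted p = 6.1e-06). Tnfrsf9, a costimulatory receptor, had 4.51 and the zinc finger factor Ikzf2 (Helios) 3.82. The receptor Tnfrsf18 (GITR) had 1.28 and the Helios relative Ikzf4 (Eos) 1.09. Other genes called higher, such as Dusp4 and Nr4a3, lay between Ikzf2 and Tnfrsf18. Naive values of Tnfrsf9 (11.7 and 4.5) and Dusp4 (1 and 0.8) were as dim as those of Ctla4. For these genes the pseudocount sets part of the size. Ikzf4 lost its call without activated replicate 2 or naive replicate 1, at 1.05 and 0.86. The integrin chain Itgae (CD103) was lower, at 18.0, 7.6 and 14.4 in activated samples, against 91.3 and 88.5 in naive samples (log2 fold change -1.87, adjusted p = 6.8e-04). The cytokine signal inhibitor Cish had -1.09 and was lower too.

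Among other surface markers in the list, Cd83 (log2 fold change 3.09), Icos (2.83), Il2rb (2.43) and Tnfrsf4 (1.85) were called higher. Several classic ones of the lineage did not pass. Il2ra, the high-affinity IL-2 receptor chain CD25, read 27.0, 41.9 and 34.8 in activated samples, against 39.6 and 46.8 in naive samples (log2 fold change -0.24, adjusted p = 0.58). The ectonucleotidase Nt5e (CD73) read 18.3, 1.1 and 3.1 in activated samples, against 29.8 and 23.8 in naive samples. Its log2 fold change was -0.93 (adjusted p = 0.12), and it was called lower without activated replicate 1, at -1.24. Its partner Entpd1 (CD39) read 33.3, 24.2 and 18.6 in activated samples, against 18.2 and 12.9 in naive samples (0.38, adjusted p = 0.42). Nt5e and Entpd1 were thus dim, and neither was tested with the filter at the 60th percentile. The receptor Klrg1 had 0.15 (adjusted p = 0.91). Of 9 tested genes known to be lower in regulatory than in other CD4+ T cells, 4 were called lower and 0 higher, with 2 higher at an unadjusted p under 0.05 and a median of -0.23. Over all genes tested, 4.14% were called lower and 6.37% higher. Activated cells were compared with naive cells here, and no sample of separately sorted regulatory T cells was measured. Igfbp4, a binding protein of insulin-like growth factors, had -3.61 and Dntt, the thymocyte DNA polymerase, -3.35. Il7r had -1.98 and Actn1 -0.73. Actn1 lost its call with median centring, no filter or no intensity trend. It also lost it without activated replicate 1 or 2 (-0.58 and -0.78) and without naive replicate 1 or 2 (-0.92 and -0.55). With the replicate block Bach2 was called higher, at 0.63. Il2 encodes the growth factor that regulatory T cells consume and do not make. It read 18.8, 31 and 23.5 in activated samples, against 11.8 and 4.4 in naive samples, with both naive values below the filter. Its log2 fold change was 0.75 (unadjusted p = 0.020, adjusted p = 0.12).

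Around Foxp3, 26 of 27 factors that induce it or bind with it were tested. Called higher were 5, called lower 2, and the median was -0.04. The shares over all genes tested were 6.37% called higher and 4.14% lower. The antigen receptor-induced nuclear receptor Nr4a1 had a log2 fold change of 3.91 and the interferon regulatory factor Irf4 2.49. The deubiquitinase Usp7, known to stabilise the FOXP3 protein, was lower at -0.90 (adjusted p = 0.0049), and the forkhead factor Foxo1 at -0.72 (adjusted p = 0.015). Without naive replicate 2 both lost their call, at -0.79 for Usp7 and -0.64 for Foxo1. Foxo1 also lost it without activated replicate 2, at -0.75, and with the mean over its probe sets, at -0.44. The count called higher was 3 without naive replicate 1, and that called lower 0 without naive replicate 2 and 1 without activated replicate 2.

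Around Il10, many of the factors that drive or repress it passed the test, while Il10 itself read near or below the filter. Of 12 tested, 8 were called higher and 1 lower, with a median log2 fold change of 1.25. The shares over all genes tested were 6.37% called higher and 4.14% lower. Egr2, an antigen receptor-induced zinc finger factor, had 2.80, Bhlhe40, a repressor of Il10 in mouse T cells, 2.62 and Maf, an activator of it, 1.15. Prdm1 (Blimp-1) read 38.5, 23.0 and 18.9 in activated samples, against 82.9 and 67.4 in naive samples (log2 fold change -1.11, adjusted p = 0.017). Its call was lost with activated replicate 2 left out (-1.06) and with either naive sample left out (-0.99 and -1.24), as well as with no filter. Maf lost its own without naive replicate 2, at 0.94, and with the mean over its probe sets, at 0.37. Without naive replicate 2 the list's counts were 5 higher and 0 lower. Of 8 tested genes of the IL-10 receptor, its signalling and its family, 1 was lower, 0 were higher and 0 had an unadjusted p under 0.05 upward, with a median of -0.11. The one that fell was Socs3, a cytokine signal inhibitor, at -2.41. The receptor chains Il10ra and Il10rb had 0.53 (adjusted p = 0.49) and -0.15 (adjusted p = 0.63).

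The genes around Ebi3 were read as well. Among 7 tested chains and receptors of the IL-12 family, 1 was called higher and 1 lower. The shares over all genes tested were 6.37% and 4.14%, and the list's median log2 fold change was 0.09. Il12a, the IL-35 partner, read 11.2, 17.7 and 11.3 in activated samples, against 25.6 and 5.1 in naive samples (log2 fold change -0.02, adjusted p = 0.98). Il27, the IL-27 partner, has no probe set in the annotation used. Il12b had 0.09 (adjusted p = 0.88), the IL-27 receptor chain Il27ra 0.09 (adjusted p = 0.87), and Il23a was not tested. The shared receptor chain Il6st had 0.60 (adjusted p = 0.047), a call lost with any 1 array left out (0.48 to 0.73), and also with quantile normalization, median centring, no filter or no intensity trend. Il6ra was lower, at -1.50 (adjusted p = 3.6e-04).

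The ligands and partners of the remaining members were read beside the shares over all genes tested, 6.37% called higher and 4.14% lower. Of 11 tested genes of TGF-beta loading and release around Lrrc32, 0 were called by limma, with 1 higher and 1 lower at an unadjusted p under 0.05 and a median of -0.24. Tgfb1 read 407.4, 307.6 and 296.9 in activated samples, against 218.6 and 212.4 in naive samples. Its log2 fold change was 0.60 (adjusted p = 0.066), which passed with the bioC split as a block, at 0.57. The receptor chain Tgfbr2, named after its values were seen, read 1366.6, 1228.7 and 1151.7 in activated samples, against 1775.3 and 1879.6 in naive samples. Its log2 fold change was -0.55 (adjusted p = 0.051), and it was called lower under 6 alternatives, from -0.49 to -0.56. The integrin chain Itgav had -0.15 and Itgb8 was not tested. Of 12 tested ligands, coreceptors and partners of Nrp1, 0 were called, with 2 higher and 1 lower at an unadjusted p under 0.05 and a median of 0.08. Sema4a had -0.40 (adjusted p = 0.24) and Nrp2 0.08 (adjusted p = 0.91). Of 5 tested genes of the folate receptor family and folate transport, 0 were called, with 2 higher at an unadjusted p under 0.05 and a median of 0.34. Folr2, a relative of Izumo1r, had 0.34 (adjusted p = 0.72), and Folr1 was not tested. Of 8 tested genes of Gpr83 ligand and signalling, 0 were called higher, 2 lower and the median was -0.36. Those were the beta-arrestins Arrb2 (-0.91, adjusted p = 0.018) and Arrb1 (-0.75, adjusted p = 0.049), and Arrb1 lost its call with any 1 array left out. Arrb2 lost its own without activated replicate 2 (-0.80), without naive replicate 2 (-0.62), and with probe sets without a shared-sequence suffix (-0.62).

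Lists of other CD4+ T cell states that share genes with the members were read last. Their counts stand beside shares over all genes tested of 6.37% called higher and 4.14% lower. Of 14 tested anergy genes, 5 were called higher and 1 lower, with a median of 0.28. Egr3 had a log2 fold change of 3.16, while Dgka, a kinase that removes diacylglycerol, had -0.88 (adjusted p = 0.0053), a call lost without naive replicate 2, at -0.86. Counts were 3 higher without naive replicate 2, activated replicate 2 or activated replicate 3. Of 10 tested genes of Tr1 cells, which make IL-10 without Foxp3, 5 were called higher and 0 lower, with 0 lower at an unadjusted p under 0.05 and a median of 1.27. Eomes, a T-box factor that NK cells also express, read 696.4, 281.6 and 440.9 in activated samples, against 154.9 and 43.4 in naive samples. Its log2 fold change was 2.19 (adjusted p = 0.0086). It lost its call with robust variances and, at 1.43, without naive replicate 2, which left 2 called genes in the list. The lists share genes such as Ctla4, Maf, Eomes, Lag3, Egr2 and Irf4, so their counts are not independent.

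**Figure D5:**
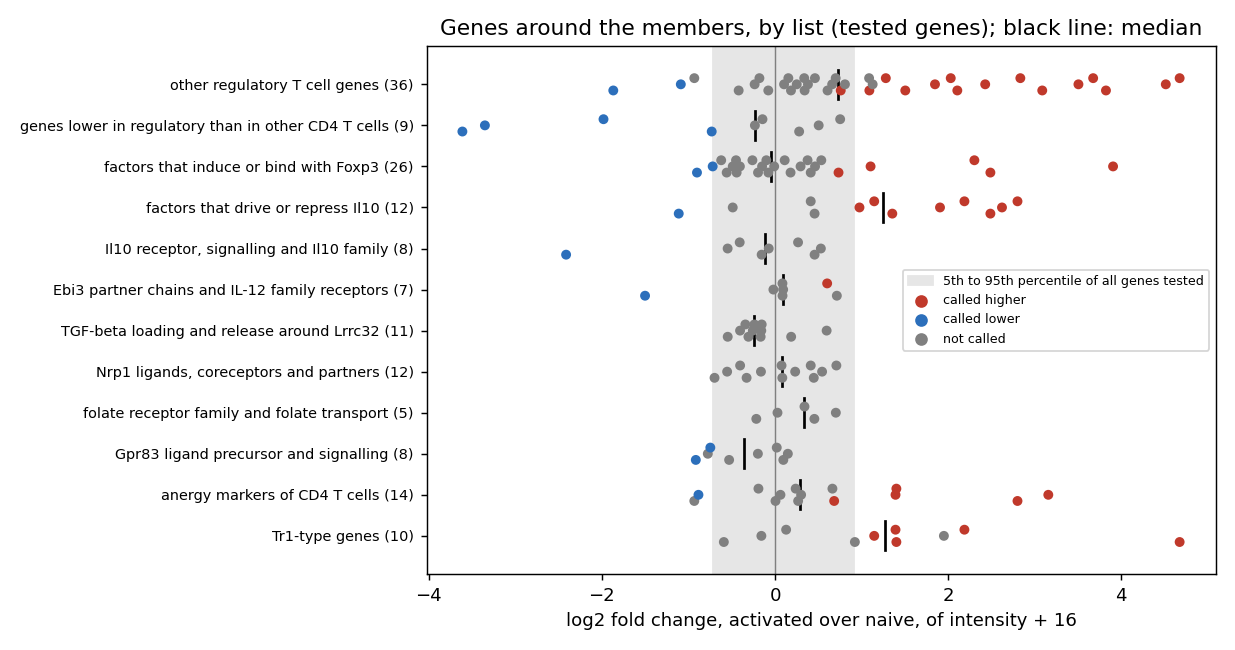
Log2 fold change, activated over naive, of tested genes in the 12 lists around the members, with the number tested in brackets. Red points were called higher, blue lower and grey neither, black lines are list medians, and the band holds the 5th to 95th percentile of all genes tested. Medians are 0.73 for other regulatory T cell genes, 1.25 for factors of Il10 and 1.27 for Tr1-type genes, and run from -0.36 to 0.34 for the other 9.

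The tested genes most like each called member over the 5 arrays were found by the root mean square difference of centred log2 values. For Izumo1r these were Shcbp1 (0.084), the gap junction gene Gjb2 (0.13) and the transcription factor gene Myb (0.18). For Gpr83 they were Arhgap19 (0.072), Gas2l3 (0.12) and Rundc3a (0.14). Like Gpr83, each of them lay below the filter on naive replicate 1, at 2.5, 4.2 and 7.3. For Ebi3 they were the protease inhibitor gene Ctla2a (0.063), the protease gene Capn3 (0.12) and Eif2s3y (0.13), a gene of the Y chromosome. Ctla2a, the nearest to Ebi3, read 467, 425 and 704.6 in activated samples, against 190.6 and 86.2 in naive samples, with the same order of arrays as Ebi3.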

How the data were processed

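Gene expression was measured on 3 activated and 2 naive samples. The deposited values are 1 intensity per probe set on a linear scale, from 6 µg of total RNA per sample per the labels' protocols. How probes were summarised is not given in the sources used here. On each array the mean after trimming 2% was near 100, and differences are read against that common level.

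In the platform annotation 34945 probe sets had 1 symbol, 932 several, 9160 none and 64 were controls. Of those with 1 symbol, 34741 were updated through the Entrez ID in a RefSeq table of GRCm38.p6. The brightest probe set stood for each of 18193 genes. Log2(intensity + 16) was tested with limma 3.58.1 in R 4.3.3 (lmFit on the group, eBayes with trend, two-sided), over 12860 genes and again over 29201 probe sets. The code was tested on simulated data. Members and lists were chosen with earlier results of these data known.

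Named were all members, a panel set by pathway, in each list the 2 largest rises and falls among called genes, and the 3 genes most like each called member. At most 0.947% of values were equal between arrays, and correlations across genes were 0.970 to 0.977 within groups and 0.929 to 0.944 between them. Alternatives changed the normalization, filter, pseudocount, probe set choice, variance model, blocks and samples. Those on single member probe sets were chosen after seeing the data. The bioC split was found in the data and is not given by the labels.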

Additional observations from a re-analysis of the deposited data

How the results depend on the processing

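The count of 3 called members was the same under each alternative except 4 without activated replicate 1, where Nrp1 passed at 1.25, and 2 with probe sets without a shared-sequence suffix, of which Izumo1r and Foxp3 have none. Leaving out each array in turn gave 3.43 to 3.65 for Izumo1r, 1.20 to 1.96 for Gpr83, 1.27 to 2.36 for Ebi3, 0.44 to 1.33 for Nrp1, -0.24 to 0.17 for Foxp3 and -0.43 to 0.0012 for Il10. Where 1 naive array was left, it was assumed to vary like the activated ones. Foxp3 was -0.0026 with quantile normalization, and was not tested at the 60th percentile, with probe sets without a shared-sequence suffix, without activated replicate 1 or without naive replicate 2. Il10 was -0.50 with a pseudocount of 1. With the replicate block, log2 fold changes were 3.54 for Izumo1r, 1.68 for Gpr83, 1.64 for Ebi3, 0.67 for Nrp1, 0.17 for Foxp3 and -0.18 for Il10, 3 members were called, and Tgfb1 passed at 0.68. The labels do not say that a number marks a shared source. Deviations of same-numbered samples correlated at 0.169 and -0.131, but with 2 naive samples these deviations mirror each other, so the correlations cannot show whether the numbers pair the samples. Counts of other regulatory T cell genes called higher ran from 13 (without activated replicate 2) to 21 (with the replicate block). Factors around Foxp3 had 4 called lower with the bioC block, as had the Gpr83 list, which had 0 without activated replicate 2, without naive replicate 2 or with no intensity trend. The list around Lrrc32 had 1 called lower (Tgfbr2) under quantile normalization, the 60th percentile filter, probe sets without a shared-sequence suffix, robust variances, the replicate block and the bioC block. The folate list had 1 called higher (Cd9) under robust variances, both blocks and without activated replicate 3. Derl3 was not tested at the 60th percentile, and Derl3, Cd8b1 and Pecam1 have no probe set without a shared-sequence suffix that was tested. The number of arrays and the dim naive values of genes such as Gpr83, Ebi3, Ctla4, Tnfrsf9 and Dusp4 limit the sizes given.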

Other observations

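Eif2s3y, found above as a gene whose values over the arrays resembled those of Ebi3, lies on the Y chromosome, and other genes of that chromosome were read after this was seen. Eif2s3y read 334.2, 229.5 and 374.8 in activated samples, against 101.4 and 43.2 in naive samples (log2 fold change 1.95, limma adjusted p = 0.0019). Uty read 114.1, 91.9 and 135.5 in activated samples, against 40.2 and 19.5 in naive samples (1.53, adjusted p = 0.0031). Kdm5d read 112.9, 117.9 and 159.7 in activated samples, against 57.8 and 32.6 in naive samples (1.27, adjusted p = 0.0063), and its call was lost without naive replicate 2, at 0.97, and with the mean over its probe sets, at 0.70. Xist, which is transcribed from the inactive X chromosome, read 1307.3, 1449.6 and 1021.9 in activated samples, against 1195.4 and 1510.9 in naive samples (-0.11, adjusted p = 0.79). The labels used here give no sex for the pooled mice, and its part in the member values was not tested.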
